A study of Rattus norvegicus with 10 samples.

Results

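The miR-29 family was represented by 4 of the 237 rat miRNAs on the array, each with 1 probe and chosen by name alone: rno-miR-29a, rno-miR-29b, rno-miR-29c and rno-miR-29c*, the opposite arm of the miR-29c hairpin (the rat prefix is left out from here on). Of these, 1 probe (miR-29a) was clearly measured in the collateral vessels, and the other three read at or near background. miR-29a read lower in the shunt RNAs of 4 of 5 animals, by 0.38 on the log2 scale on average. The difference did not pass the threshold over all miRNAs tested (limma adjusted p = 0.087, or 0.247 with the animal as a block). It stayed below 0 under all 41 alternatives that recompute the value from these same RNAs, but was only -0.096 with no between-array normalization. The values the authors deposited gave -0.25 (limma adjusted p = 0.578).

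Collaterals are small arteries that bridge a vascular bed and widen once the main route is blocked. The shunt group held collateral tissue from the leg of 5 male rats (strain given in the labels as Spraque-Dawley) in which the femoral artery was ligated and an arteriovenous shunt was placed to raise fluid shear stress. The control group held the same tissue from the opposite, sham-operated leg of the same 5 animals, so each control comes from an animal that carried a shunt in its other leg. The labels used here state neither the age of the animals nor how long after surgery tissue was taken. The 10 two-colour arrays formed a closed loop in which an RNA appeared on 2 arrays, in red on the first and in green on the other. Of the arrays, 4 held shunt RNA only, 4 held control RNA only and 2 held both groups.

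The miR-29 family is known for its targets: its members repress transcripts of fibrillar and basement membrane collagens, elastin, fibrillin and other proteins of the extracellular matrix. In the mouse and rat heart it is known to fall in scar tissue, and transforming growth factor beta is known to lower it in fibroblasts. In the arterial wall, where smooth muscle cells and fibroblasts lay down this matrix, it has been studied for its part in matrix loss and in aneurysm. A miRNA selects its targets mainly through the seed, bases 2 to 8 from the 5′ end.

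The mature sequences are shown because they set how far the probes can be told apart. All 4 probe names matched a RefSeq entry (build GRCr8); the star form was matched to the 5p arm, its later name. Each is printed 5′ to 3′ with the seed in capitals.
miR-29a: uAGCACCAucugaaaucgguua
miR-29b: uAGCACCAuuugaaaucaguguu
miR-29c: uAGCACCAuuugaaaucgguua
miR-29c*: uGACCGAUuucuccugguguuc
miR-29a, miR-29b and miR-29c share 1 seed, AGCACCA, and of the 693 mature names in the RefSeq table these 3 alone carry it. The seed of miR-29c* differs. Counted from the 5′ end with no gaps, miR-29a and miR-29c are identical at 21 of 22 bases and differ by C10U alone. miR-29a and miR-29b are identical at 18 of 22 compared bases and differ by C10U, G18A, U21G and A22U, and miR-29b has 1 more base at its 3′ end. Signal could therefore pass between the family's probes, which was not tested; the probe sequences were not used here.

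The genes lie in 2 pairs. Mir29a (chr4:60617955-60618042) and Mir29b1 (chr4:60618334-60618414) lie on the minus strand with 291 bases between their hairpins. Mir29b2 (chr13:109098831-109098911) and Mir29c (chr13:109099359-109099446) lie on the plus strand with 447 bases between them. Mature miR-29b is the same from both of its genes, so its probe cannot tell them apart.

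Levels are log2 intensities after background correction with an offset of 50, which sets a floor of 5.64; a reading was taken as above background where 2 or more of the probe's 3 spots lay over their local background by 2 SD. On this scale a difference understates the change of a dim miRNA. Rat miRNAs above background numbered 88.8 ± 12.8 per shunt RNA and 60.5 ± 19.0 per control RNA (SD, n = 5 each, means of 2 readings), which touches every filter below. Of the tissue markers, the smooth muscle miR-143 and miR-145 passed this criterion in 19 of 20 shunt readings and 18 of 20 control readings. The endothelial miR-126 passed in 10 of 10 readings of each group, and the endothelial miR-126* in none. The liver miRNA miR-122a also passed in 10 of 10 readings of each group, with a mean level of 6.79 in shunt and 7.02 in control RNAs. What its probe read in this tissue was not tested. The erythroid miR-144 and miR-451 were not above background in any reading. In bulk tissue such as this, fewer cells of a type and less RNA per cell cannot be told apart.

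miR-29a was above background in 9 of 10 shunt readings and in 10 of 10 control readings. The exception was the red reading of shunt 5, where the 3 spots exceeded the local background by 19, 9 and 3 units and only 1 spot passed. Before any normalization, its spots lay above the local background by a median of 69 units (3 to 205, 30 spots) in shunt readings and of 85.5 units (37 to 186, 30 spots) in control readings.

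After normalization the level of miR-29a was 6.85, 6.99, 6.98, 6.72 and 6.82 in shunt RNAs 1 to 5. In control RNAs 1 to 5 it was 7.30, 7.48, 6.91, 7.38 and 7.19. Control 3 lay below shunt 2 and shunt 3, so the groups overlapped, and the other four control RNAs lay above all 5 shunt RNAs. The means were 6.87 ± 0.11 in shunt RNAs and 7.25 ± 0.22 in control RNAs (SD, n = 5 each). The fitted difference, shunt minus control, was -0.38 (SE 0.11, 95% interval -0.62 to -0.14), a level in shunt RNAs of 0.768 times that in control RNAs (0.650 to 0.908). limma gave an unadjusted p of 0.00521 and an adjusted p of 0.087 over the 93 rat miRNAs that passed the filter, so miR-29a was not called; 1 of those 93 (1.08%) passed the threshold in either direction, and 0 passed as lower. At an unadjusted p under 0.05, 18 of the 93 (19.4%) differed and 2 of the 93 (2.15%) were lower, miR-29a and miR-145.

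**Figure D1:**
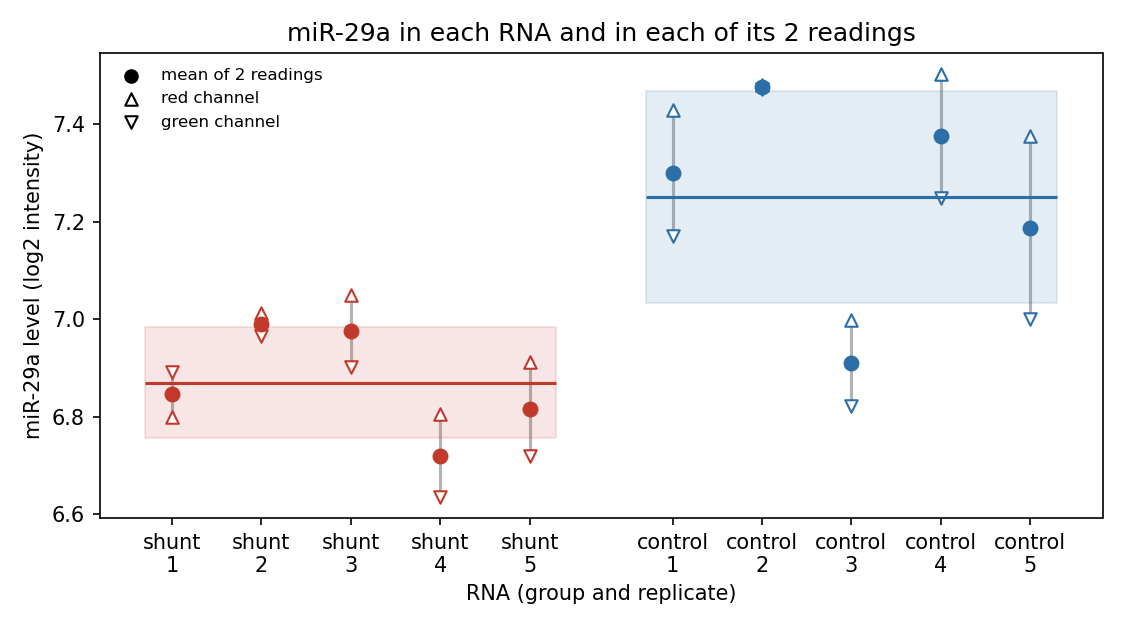
Level of miR-29a (log2 intensity, vertical axis) in each RNA, shunt at the left and control at the right; filled circles are the mean of the 2 readings, open triangles the red (up) and green (down) readings, lines and bands the group mean ± SD (n = 5). The shunt RNAs lie between 6.72 and 6.99, and control 3 (6.91) is the control RNA that falls among them.

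The legs of 1 animal can be set side by side. Shunt minus control for miR-29a was -0.45, -0.49, 0.067, -0.66 and -0.37 in the animals of replicates 1 to 5. Only the animal of replicate 3, with the low control 3, went the other way. Leaving out control 3 gave -0.47 and an adjusted p of 0.0356. Leaving out control 4 gave -0.35 and an adjusted p of 0.0465, in a fit where 25 of 93 miRNAs passed. Control 1 and control 3 stood apart in that their red and green deviations from the mean of all 20 readings correlated by -0.20 and -0.028 over the kept miRNAs, against 0.25 to 0.77 in the other eight RNAs; without both, the difference was -0.48 (adjusted p = 0.114). An exact permutation test over unpaired RNAs, two-sided and unadjusted, gave p = 0.0238 (the smallest it can give is 0.00794), and exchanging only the 2 legs within an animal gave p = 0.125 (the smallest is 0.0625). Each array couples a pair of RNAs, usually of the same group, so p-values that take the 10 RNAs as independent may be too small.

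The 2 dyes gave the same direction. In the red channel miR-29a averaged 6.92 ± 0.12 in shunt and 7.36 ± 0.21 in control readings (SD, n = 5 each). In the green channel it averaged 6.82 ± 0.14 in shunt and 7.14 ± 0.25 in control readings. The differences of -0.44 (adjusted p = 0.127) and -0.32 (adjusted p = 0.217) did not pass the limma test with 1 reading per RNA. The 2 readings of an RNA were 0.0088 to 0.38 apart.

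On the 2 arrays with RNA of both groups, where a difference between arrays cannot enter, miR-29a was lower in the shunt RNA each time. On the first, shunt 1 (green) read 6.89 and control 5 (red) 7.38, a difference of -0.49, with -0.44, -0.52 and -0.50 in the 3 spots. On the second, with the dyes turned round, shunt 5 (red) read 6.91 and control 1 (green) 7.17, a difference of -0.26, with -0.18, -0.30 and -0.30 in the 3 spots. The median difference of the 93 kept miRNAs on these arrays was -0.0062 and 0.087, and 2 and 6 of the 93 lay lower than miR-29a. These are single pairs of RNAs with no test. On the 8 arrays of 1 group the 2 readings of miR-29a differed by 0.044 to 0.66, each gap setting a red against a green reading. Between levels averaged over both dyes, RNAs of 1 group lay up to 0.27 apart in the shunt group and up to 0.57 in the control group.

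Relative to the other miRNAs the difference was larger. The 93 kept miRNAs read higher in shunt RNAs by a median of 0.12 (67 higher, 26 lower), so miR-29a lay 0.50 below that shift. The filter keeps a miRNA that passes in either group, and more miRNAs were above background in shunt RNAs. Part of the shift, and of any result centred on it, may therefore be set by the filter, which was not tested. After subtracting from each RNA its own median over these 93, the difference of miR-29a was -0.51 and passed the limma test (adjusted p = 0.0282). By the uncentred difference miR-29a was second lowest of the 93, after miR-210, a miRNA known to be induced by hypoxia, which differed by -0.47 with a wide error (SE 0.26, adjusted p = 0.292). By p it ranked 5 of 93. With no between-array normalization the difference of miR-29a was only -0.096 (adjusted p = 0.718).

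**Figure D2:**
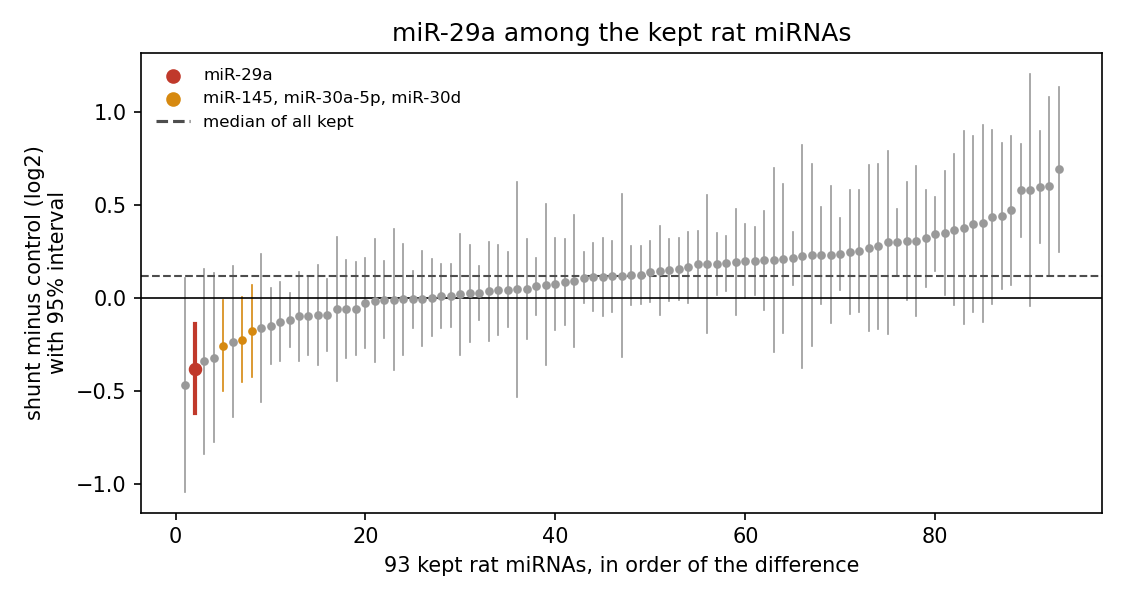
Shunt minus control (log2, vertical axis) with its 95% interval for each of the 93 kept rat miRNAs, in order of the difference (horizontal axis); the dashed line is the median of all 93 (0.12). miR-29a (red, -0.38) is second from the left, and miR-145, miR-30a-5p and miR-30d (orange) also lie on the low side.

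The 3 spots of each probe lie in 3 sets, in the first, middle and last part of the array, and these sets did not read alike. In the first set miR-29a averaged 7.10 ± 0.12 in shunt and 7.32 ± 0.22 in control RNAs. In the last set it averaged 6.66 ± 0.18 in shunt and 7.17 ± 0.22 in control RNAs (SD, n = 5 each). Shunt minus control was -0.23 (SE 0.12, adjusted p = 0.149) in the first set, -0.40 (SE 0.12, adjusted p = 0.116) in the middle set and -0.51 (SE 0.13, adjusted p = 0.179) in the last set.

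The loss across the array was also seen in the kept miRNAs as a whole, and it went with the array as well as with the group. The median of the last minus the first spot over the 93 ran from -0.60 to 0.064 in shunt readings and from -0.064 to 0.081 in the 9 control readings of arrays 1 to 5. Some readings differed from the rest of their group. The control reading on array 10 had a median of -0.27, and miR-29a changed by -0.46 there. The shunt reading on array 5 had a median of 0.064, and miR-29a changed by -0.094. The shunt readings of array 6, which held shunt RNA only, had medians of -0.065 and -0.059. Within the mixed arrays, the shunt and control readings had medians of 0.064 and 0.032 on array 5 and of -0.55 and -0.27 on array 10. The other 8 of 10 arrays held 1 group each and cannot separate array from group. The cause of the loss was not tested. The median shift between groups was 0.23 in the first set, 0.12 in the middle set and -0.0099 in the last set. Relative to that shift, miR-29a lay at -0.46, -0.52 and -0.50 in the 3 sets. With the centring on the kept miRNAs, which rests on the same filter, it passed the limma test in each set (adjusted p = 0.0419, 0.0254 and 0.0403).

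**Figure D3:**
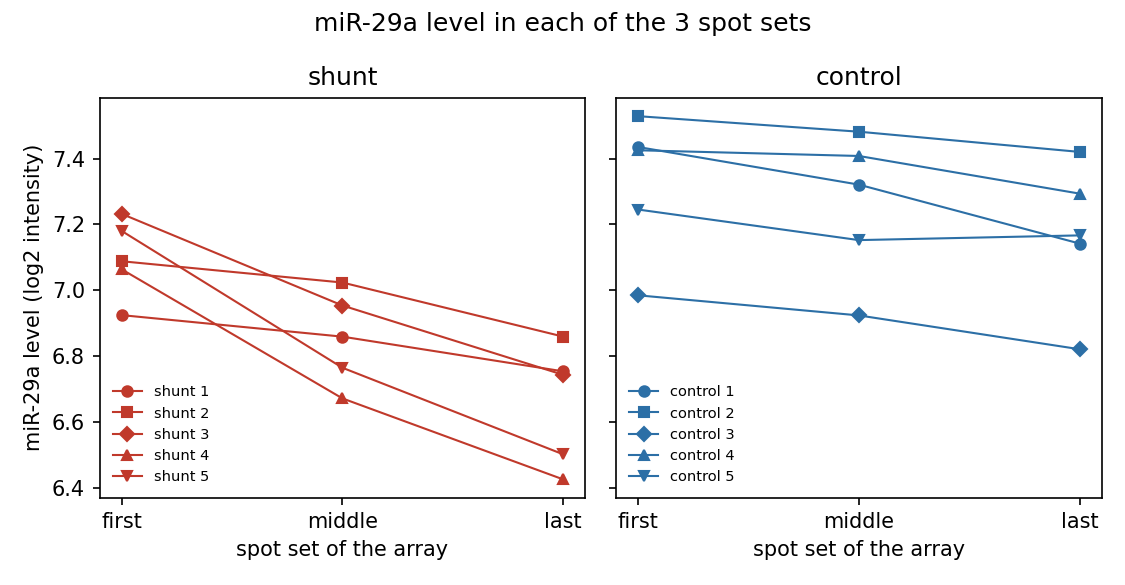
Level of miR-29a (log2 intensity, vertical axis) in the first, middle and last spot set of the array (horizontal axis) for each shunt RNA (left) and control RNA (right). Lines for shunt 3, shunt 4 and shunt 5 drop most steeply; the shunt mean is 7.10 in the first set and 6.66 in the last, the control mean 7.32 in the first and 7.17 in the last.

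The values the authors deposited were less even across animals. In the authors' deposited table miR-29a differed, shunt minus control, by -0.44, 0.82, 0.15, -1.22 and -0.58 on the log2 scale in the animals of replicates 1 to 5. It was thus lower in 3 animals and higher in 2, and the authors' p was below 0.05 in 1 of the 5, that of replicate 4 (0.0385). Animal 28 (replicate 2) had opposite signs in the deposited values and in the levels normalized here. After that normalization both readings of shunt 2 (7.01 and 6.97) lay below both readings of control 2 (7.48 and 7.47). Before any normalization the spots of shunt 2 were the brighter, by 109 to 205 units above the local background against 37 to 64 in control 2. The sign in this animal thus depended on the normalization. Tested like the other levels, the deposited values gave a difference of -0.25 (limma adjusted p = 0.578).

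The authors' deposited table also ranks the 1107 probes within each RNA, a larger number standing for a dimmer probe. miR-29a ranked 75.5, 72, 67, 104 and 66 in shunt RNAs 1 to 5, and 36, 37, 66, 55 and 51 in control RNAs 1 to 5. The ranks met at 66, which shunt 5 and control 3 shared, and all other shunt RNAs ranked it as dimmer than all control RNAs.

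miR-29b, which shares the seed and the main collagen targets, passed as above background once in 10 shunt readings and in 0 of 10 control readings. Its spots passed in 5 of 30 and 3 of 30 cases, all 8 of them green. Its level was 6.04, 6.05, 6.05, 6.0 and 6.01 in shunt RNAs 1 to 5. In control RNAs 1 to 5 it was 6.08, 6.36, 6.18, 6.04 and 6.2. The control spots that passed were single green spots of control 2, control 3 and control 5, at 6.96, 6.81 and 6.77. The other green spots of these RNAs read 5.94 to 6.26. Neither group was well above background, so no fold can be given and the filter left miR-29b out of the test.

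In the authors' deposited table miR-29b had a median rank of 455 in shunt RNAs and of 291 in control RNAs of 1107 probes. The groups did not overlap, the smallest shunt rank being 412 and the largest control rank 381. Of the 237 rat probes, 2 (0.844%) ranked in this way, miR-29b and miR-101a, of which miR-101a was named after its values were seen. None of the 93 kept miRNAs (0%) did. Shunt RNAs also had more miRNAs above background, and its part in the rank of a probe near background was not tested.

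miR-29c, which differs from miR-29a by the 1 base C10U, was not above background in any reading. Its level was 5.71 ± 0.0082 in shunt and 5.73 ± 0.020 in control RNAs (SD, n = 5 each), close to the floor of 5.64. Its spots lay above the local background by a median of 1 unit in shunt and of -1 unit in control readings. The scanner gives a flag per spot, which its red and green readings share. All 30 spot readings of each group carried the flag -50, against 0 of 30 for miR-29a in each group. The meaning of the flag is not stated in the deposited data or labels.

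miR-29c*, the arm of the hairpin that usually is the less abundant, also had 0 of 10 readings above background in each group. Its level was 5.89 ± 0.024 in shunt and 5.88 ± 0.015 in control RNAs (SD, n = 5 each), with 2 of 30 shunt and 0 of 30 control spots above background. For miR-29c and miR-29c* these arrays therefore give no measure of a difference between the legs.

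**Figure D4:**
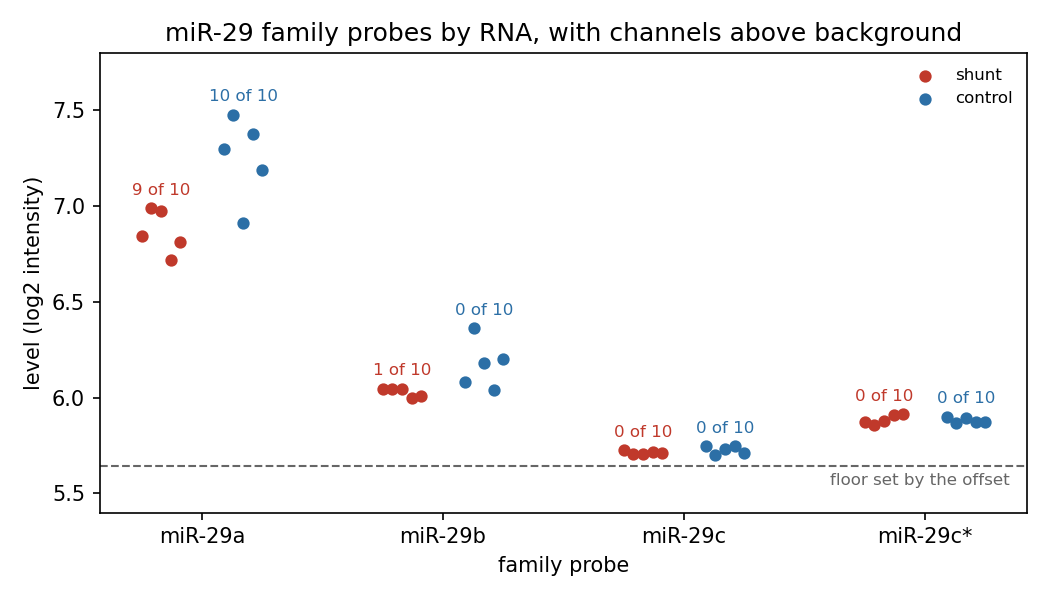
Level (log2 intensity, vertical axis) of the 4 family probes in each RNA, shunt (red) left of control (blue); numbers give the readings above background of 10 per group and the dashed line the floor of 5.64. miR-29a is well above the floor in both groups, and miR-29b, miR-29c and miR-29c* have at most 1 of 10 readings above background.

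The miRNAs whose level over the 10 RNAs was most like that of miR-29a were miR-30a-5p (Pearson r = 0.83, Spearman rho = 0.90), miR-30d (r = 0.80, rho = 0.84) and miR-145 (r = 0.77, rho = 0.76). These are descriptions over 10 RNAs that share arrays and normalization; over the 92 other kept miRNAs the median r was -0.11, and 8 had r above 0.5. Without control 2 and control 4, the RNAs farthest from the median of miR-29a, r was 0.78, 0.76 and 0.94. Taken as deviations from the group means, r was 0.71, 0.77 and 0.58. By the RefSeq sequences, neither miR-30a-5p nor miR-145 carries the miR-29 seed.

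Because the correlation covers both groups, the choice itself favours miRNAs that are lower in shunt RNAs, and the differences of these 3 are given as a description; none passed the test. miR-30a-5p averaged 6.44 ± 0.14 in shunt and 6.66 ± 0.18 in control RNAs, a difference of -0.22 (SE 0.10, adjusted p = 0.254). miR-30d averaged 7.13 ± 0.13 in shunt and 7.31 ± 0.22 in control RNAs, a difference of -0.18 (SE 0.11, adjusted p = 0.307). miR-145, a miRNA of contractile smooth muscle, averaged 6.64 ± 0.15 in shunt and 6.89 ± 0.20 in control RNAs. Its difference was -0.26 (SE 0.11, limma adjusted p = 0.235). The other smooth muscle miRNA, miR-143, did not read lower, with 8.71 ± 0.42 in shunt and 8.66 ± 0.52 in control RNAs. That difference was 0.046 (SE 0.26, limma adjusted p = 0.967). Values after ± in this paragraph are SD (n = 5 each).

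The pathway around the family was described through other miRNAs linked to collagen, connective tissue growth factor or transforming growth factor beta. Of 19 on the array 15 were kept, 9 of them reading higher and 6 lower, with a median difference of 0.087. Of the 9, miR-21, miR-199a, miR-200a and miR-200b were kept only through the shunt group, so their direction was in part set by the filter. Over all 93 kept miRNAs the median was 0.12, with 67 higher and 26 lower. In this list 1 miRNA passed the test as higher and 0 as lower, the same miRNA as the 1 of 93 counted above. It was miR-21, known to promote fibrosis, which averaged 6.55 ± 0.25 in shunt and 5.98 ± 0.061 in control RNAs (SD, n = 5 each). It was kept only through the shunt group, with 8 of 10 shunt readings above background and none of 10 control readings, so a difference was in part set by the filter. The limma test of the measured levels (difference 0.58, SE 0.11) gave an adjusted p of 0.0324, and of 0.0361 over all 237 rat miRNAs with no filter. In a calculation on the means, apart from that test and with no sampling error counted, miR-21 was 1.23-fold higher in shunt RNAs. For this the control level was set to the dimmest signal that passed as above background, or to its own signal where that was larger. A signal that does not pass can exceed the dimmest that does, so this value is not a strict lower bound. In the green reading of control 3, miR-29b read 6.35 and did not pass, while the dimmest signal that passed read 6.26. With the animal as a block the call was lost (adjusted p = 0.126), as it was with quantile normalization (0.0513), median centring (0.185) or red readings alone (0.127). It was also lost with any one of shunt 1 to 4 or control 1, 2 or 5 left out (adjusted p from 0.0761 to 0.116).

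The 4 brightest of the list did not pass. miR-24 differed by 0.020 (SE 0.15) and miR-26a by -0.0090 (SE 0.17). The difference of miR-214, of a mesenchymal cluster, was 0.30 (SE 0.22, adjusted p = 0.363). miR-30d is given above. Among the lists of other cell types, the 4 kept striated muscle miRNAs all read higher but 0 passed the test. Their mean level was 6.71 to 7.38 in shunt and 6.41 to 6.93 in control RNAs. Of these, miR-1 was kept only through the shunt group, with 10 shunt and 4 control readings above background. miR-208 was not above background in any reading. Of the 4 kept epithelial and liver miRNAs 3 read higher and 0 passed, with a median difference of 0.19. Over that list 32 shunt against 13 control readings were above background. The 3 that read higher (miR-200a, miR-200b and miR-203) were kept only through the shunt group, so their direction was in part set by the filter. miR-122a, kept through both groups, differed by -0.23 (SE 0.18, limma adjusted p = 0.384). In the nerve, leukocyte and endothelial lists 0 members passed. The 2 kept nerve miRNAs both read lower (median difference -0.11). The 1 kept leukocyte miRNA (-0.0040, SE 0.12) and the 1 kept endothelial miRNA (-0.0070, SE 0.14) hardly differed between the groups. The part of muscle, of epithelium or of any other cell type, in the miR-29a difference was not tested.

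**Figure D5:**
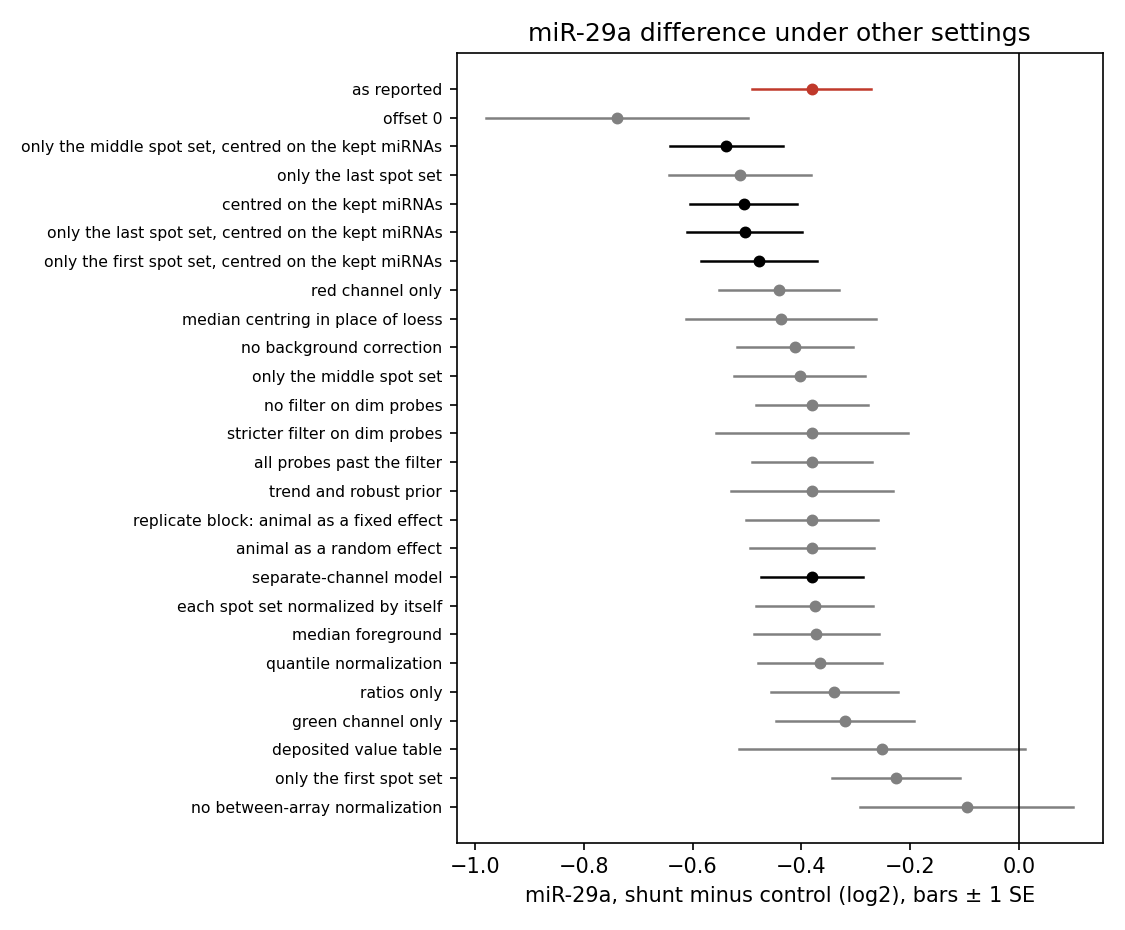
Difference of miR-29a, shunt minus control (log2, horizontal axis, bars ± 1 SE), as reported (red, -0.38) and under other settings (rows) that keep all RNAs and arrays; black rows passed the limma test (adjusted p under 0.05), grey rows did not. All points lie below 0, from -0.74 to -0.096; settings that change only the test or the filter leave the value as reported.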

How the data were processed

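Trizol-extracted total RNA carried AF665 or AF546 as its dye and was read on NCode multi-species arrays, per the labels' protocols. The authors' deposited scanner output gives foreground and local background intensity of 3321 spots (1107 probes, 3 spots each) and a flag score per spot, per the file headers, with no normalization. Their deposited value table holds log2 levels centred on 0; a further deposited table holds a signed fold score, a p-value (test not stated) and a rank score.

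Mean foreground and median background were corrected with normexp (offset 50), normalized by loess (span 0.3, 4 iterations) and Aquantile in limma 3.58.1 (R 4.3.3), and averaged over 3 spots, then 2 channels. A rat miRNA was kept (93 of 237) if a share of 0.5 or more of 1 group's readings passed the background criterion. lmFit and eBayes compared 5 shunt with 5 control RNAs, two-sided, with Benjamini-Hochberg adjustment, threshold 0.05 and no animal block. The number of arrays limits the precision. The family, the lists and the settings were chosen with earlier results of these data known. Named are the family probes, the 4 brightest kept list members, and the 3 kept miRNAs most correlated with each kept family probe. Outside that rule, miR-21, miR-199a, miR-210, miR-101a and the cell type markers were named after their values were seen. The labels tie legs with 1 replicate number to 1 animal; deviations from the group means of paired RNAs correlated by -0.42 to 0.34 over the kept miRNAs. No RNAs were identical (r of 0.848 to 0.988). The steps were tested on simulated data.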

Additional observations from a re-analysis of the deposited data

How the results depend on the processing

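Of 49 alternatives for miR-29a, 8 change only the test or the miRNAs tested and leave the difference as reported. It stayed below 0 under the other 41, from -0.74 (offset 0) to -0.096 (no between-array normalization), and passed in 7 of all 46 with a limma test (adjusted p from 0.0101 to 0.718). It passed with the separate-channel model (-0.38, adjusted p = 0.0101), where both readings of each RNA enter as if independent, under centring on the kept median (-0.51), and, chosen after seeing the data, with that centring in the first (-0.48), middle (-0.54) or last (-0.50) spot set. In each of these 5 settings the number of family members past the threshold became 1 in place of 0. The exact permutation test over unpaired RNAs (-0.38) had an unadjusted p of 0.0238. With 1 RNA left out the difference ran from -0.47 to -0.32 and the number of members past the threshold from 0 to 1, being 1 without control 3 (adjusted p = 0.0356) or control 4 (adjusted p = 0.0465). With 1 array left out it ran from -0.44 to -0.35 and never passed (adjusted p from 0.0536 to 0.165). With the replicate block of the animal the adjusted p was 0.247, and 0 members passed.

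Neither miR-29b nor miR-29c passed the background filter, and differences of such readings carry no fold. They moved by less than 1 SD in 41 of 47 alternatives for miR-29b and in 38 of 47 for miR-29c. That of miR-29b (-0.14) became -0.50 with an offset of 0, -0.019 with no between-array normalization, -0.27 with the centring, 0.035 with ratios only, 4.81e-05 on the 2 arrays that hold both groups and -0.44 in the first spot set with the centring. That of miR-29c (-0.015) became -0.20 with an offset of 0, 0.0040 with no background correction, 0.0058 with no between-array normalization, 0.017 where arrays were median-centred and not loess-normalized, -0.14 with the centring, -0.056 with ratios only, -0.26 and -0.14 in the first and middle spot sets with the centring, and -0.032 in the last set. The median of the matrix and TGF-beta list (0.087), recomputed under alternatives chosen after seeing the data, became 0.27 with no between-array normalization, -0.039 with the centring, -0.053, -0.041 and -0.085 with the centring in the first, middle and last spot sets, and -0.094 in the last set. The cause was not tested. The call of miR-21, followed through the same settings as a choice made after seeing the data, held in 25 of 45 and its difference stayed above 0 in all 45 (0.43 to 1.71, adjusted p from 0.000186 to 0.497). Comparisons between family members were not run, since only miR-29a passed the filter.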
